A study of Mus musculus with 22 samples.

Results

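Krüppel-like factors are zinc finger proteins that bind CACCC and GC boxes in promoters. The 9 genes of this family described here were Klf2 (NM_008452), Klf3 (NM_008453), Klf4 (NM_010637), Klf6 (NM_011803), Klf7 (NM_033563), Klf9 (NM_010638), Klf10 (NM_013692), Klf11 (NM_178357) and Klf13 (NM_021366). They were found by matching the RefSeq accession of every array probe to a gene symbol, which gave 1 probe and 1 spot for each, 9 of the 22346 genes tested. All 9 probes were well above background on each of the 22 arrays, so none was lost to the filter on dim probes.

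Transcript levels were measured on 1-colour arrays in bone marrow-derived macrophages (BMDM), macrophages grown in culture from bone marrow with the growth factor M-CSF. The marrow came from male C57BL/6 mice of 10 to 14 weeks that were wild-type (wt), lacked the kinase MK2 (MK2-/-) or lacked both MK2 and MK3 (MK2/3-/-). Both kinases act below p38 MAP kinase and control the stability and translation of many inflammatory mRNAs. The cells of every group were incubated for 360 min, either in culture medium or in the presence of lipopolysaccharide (LPS) at 100 ng per ml, an outer membrane component of Gram-negative bacteria. There were 4 wt medium, 3 wt LPS, 4 MK2-/- medium, 4 MK2-/- LPS, 3 MK2/3-/- medium and 4 MK2/3-/- LPS arrays. The cells differentiated without the kinases, so a difference between genotypes covers the culture as well as the LPS period.

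The family is usually divided by what the part outside the zinc fingers binds. Klf2, Klf4, Klf6 and Klf7 carry activating domains, Klf3 recruits the corepressor CtBP, and Klf9, Klf10, Klf11 and Klf13 can recruit Sin3. In macrophages and endothelium Klf2 is known for holding back inflammatory genes, Klf4 for monocyte differentiation and alternative activation, and Klf6 for working with NF-kB on inflammatory genes. Klf10 and Klf11 were first described as genes induced by transforming growth factor beta, and Klf9 as a gene of the glucocorticoid and circadian response.

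Because some members of the family are known to bind promoters of others, the sequence before the transcript start is shown for 2 genes that rose with LPS (Klf6 and Klf7) and 2 that fell (Klf2 and Klf9). Each sequence holds the 250 bases before the start on the gene's own strand, 5′ to 3′, from RefSeq on the build GRCm38.p6. Capitals mark CACCC or GGGCGG, the letters of the CACCC and GC boxes, on either strand. The windows are chr8:72318812-72319061 on the plus strand for Klf2, chr13:5861239-5861488 on the plus strand for Klf6, chr1:64121390-64121639 on the minus strand for Klf7 and chr19:23140976-23141225 on the plus strand for Klf9. For Klf7 the start in this table is not the outermost start of the gene.
Klf2: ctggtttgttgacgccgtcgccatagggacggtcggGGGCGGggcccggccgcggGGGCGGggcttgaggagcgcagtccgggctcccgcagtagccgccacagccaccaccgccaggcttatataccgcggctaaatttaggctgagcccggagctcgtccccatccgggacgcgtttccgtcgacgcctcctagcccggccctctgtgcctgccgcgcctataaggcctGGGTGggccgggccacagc
Klf6: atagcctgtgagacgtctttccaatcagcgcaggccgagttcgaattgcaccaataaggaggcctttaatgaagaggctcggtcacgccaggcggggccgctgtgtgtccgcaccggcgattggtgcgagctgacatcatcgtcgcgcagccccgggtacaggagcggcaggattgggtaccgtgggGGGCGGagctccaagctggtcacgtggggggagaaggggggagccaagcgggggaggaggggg
Klf7: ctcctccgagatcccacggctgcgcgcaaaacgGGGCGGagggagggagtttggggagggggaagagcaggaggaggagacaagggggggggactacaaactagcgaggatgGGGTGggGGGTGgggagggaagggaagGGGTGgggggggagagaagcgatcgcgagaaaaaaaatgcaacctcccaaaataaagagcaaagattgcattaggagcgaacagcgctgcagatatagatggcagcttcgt
Klf9: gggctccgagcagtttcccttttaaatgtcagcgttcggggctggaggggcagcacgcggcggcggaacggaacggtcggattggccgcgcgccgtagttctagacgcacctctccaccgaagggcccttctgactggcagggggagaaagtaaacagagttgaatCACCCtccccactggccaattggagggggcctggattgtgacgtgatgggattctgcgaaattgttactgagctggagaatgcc

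Promoter sequences were taken for 8 of the 9 members, all but Klf10. GGGCGG was found in 7 of these 8 windows, and in 32.7% of the 32851 windows of the same length in the table. Only the Klf9 window lacked it among the 8. CACCC was found in 5 of the 8, compared with 52.0% of all windows, so both motifs were present in promoters of members that rose and of members that fell. The CCAAT box was found in 4 of 8 and in 33.8% of all windows, and TATAAA in none of 8 and in 12.4% of all. An AP-1 motif (TGANTCA) was present only in the Klf9 window and in 6.75% of all. The NF-kB consensus was in none of the 8 windows and in 7.25% of all. A MEF2 consensus, whose factors lie below the kinase Erk5 and drive Klf2 in other cells, was found 109 to 118 bases before the Klf2 start and in no other member, against 2.92% of all windows. A match gives letters only, and binding was not measured.

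Mapkapk2, the MK2 gene, and Mapkapk3, the MK3 gene, were lower on every array lacking the respective kinase than on any wt array of the same treatment, but were well above background on all 22 arrays. In medium the log2 signal of Mapkapk2 averaged 11.90 ± 0.77 (SD, n = 4) for wt BMDM but 8.88 ± 0.13 (SD, n = 4) for MK2-/- and 8.44 ± 0.08 (SD, n = 3) for MK2/3-/-. With LPS it averaged 14.89 for wt, 11.61 for MK2-/- and 11.02 for MK2/3-/-. For Mapkapk3 the averages were 13.13, 12.90 and 11.16 in medium and 12.12, 12.35 and 8.0 with LPS in the same order of genotypes. The position of these probes relative to the deleted parts was not examined. Of 8 macrophage markers 7 were tested and 6 of those were well above background on all 22 arrays, with the log2 of their summed signal between 18.75 and 19.53. The Y-linked genes Ddx3y and Eif2s3y were low, at 1.99 to 3.31, on replicate 3 of both MK2-/- groups, against the label of male animals, and lay between 10.09 and 12.52 on the other 20 arrays. Replicate 4 of wt medium carried Il6, a cytokine gene induced by LPS, at 13.36, compared with 6.41 to 10.02 on the other 3 wt medium arrays and 17.52 to 18.08 on LPS arrays. Knockout medium arrays carried Il6 at 4.88 to 6.55. The LPS-induced genes Il1b, Nos2, Ptgs2 and Cxcl10 also had higher means in wt medium than in medium of both knockouts, while the wt mean of Tnf lay between theirs. A fit that left out replicate 4 of wt medium is given below. Beyond that, the part of the difference in LPS-induced genes in the LPS changes of the Klf genes was not tested. The fibroblast genes Col1a1 and Col1a2 were brighter on wt arrays (group means of 12.41 to 14.06) than on knockout arrays (8.86 to 11.85), while the log2 of the summed signal of all 4 fibroblast markers ranged from 11.55 to 16.66 on wt and from 9.29 to 15.53 on knockout arrays and Pdgfra was well above background on 4 arrays. The part of such cells in the genotype comparisons was not tested. All arrays of a genotype shared a slide, so in a direct comparison of genotypes the slide cannot be told apart from the genotype, whereas LPS and medium are compared within a slide. In these bulk samples fewer cells of a type and less RNA per cell cannot be told apart. The labels named no animals, but the 4 MK2-/- replicates of each treatment had ages of 10, 11, 12 and 13 weeks, so these came from different animals. In every other group some replicates shared an age. The p-values measure the spread between these samples.

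With LPS, most of the 9 members changed, and more of these 9 fell than rose. The first question was which members responded to LPS within each genotype, and genes with an adjusted p from limma below 0.05 (Benjamini-Hochberg, over all 22346 genes) are counted as called. In wt BMDM 7 of the 9 were called, where 42.2% of all genes were. Klf3, Klf6 and Klf7 rose (18.6% of all genes did), and Klf2, Klf9, Klf10 and Klf11 fell (23.5%). In MK2-/- BMDM 8 of 9 were called, with 44.7% of all genes: the same 3 genes rose, and Klf4 joined the 4 that fell (17.6% and 27.2% of all genes). In MK2/3-/- BMDM 8 of 9 were called, with 48.3% of all genes, and here Klf6 and Klf7 rose while Klf2, Klf4, Klf9, Klf10, Klf11 and Klf13 fell (20.3% and 28% of all genes). The median size of the change over the 9 members, without its sign, was 1.67, 2.05 and 2.04 on the log2 scale in the 3 genotypes, beside 0.66, 0.64 and 0.74 over all genes. LPS and medium arrays did not overlap for 8, 7 and 8 members, beside 48.8%, 41.9% and 50.3% of all genes. The 9 members were named with earlier results of these data known, so these counts describe them and are no test of the family.

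**Figure D1:**
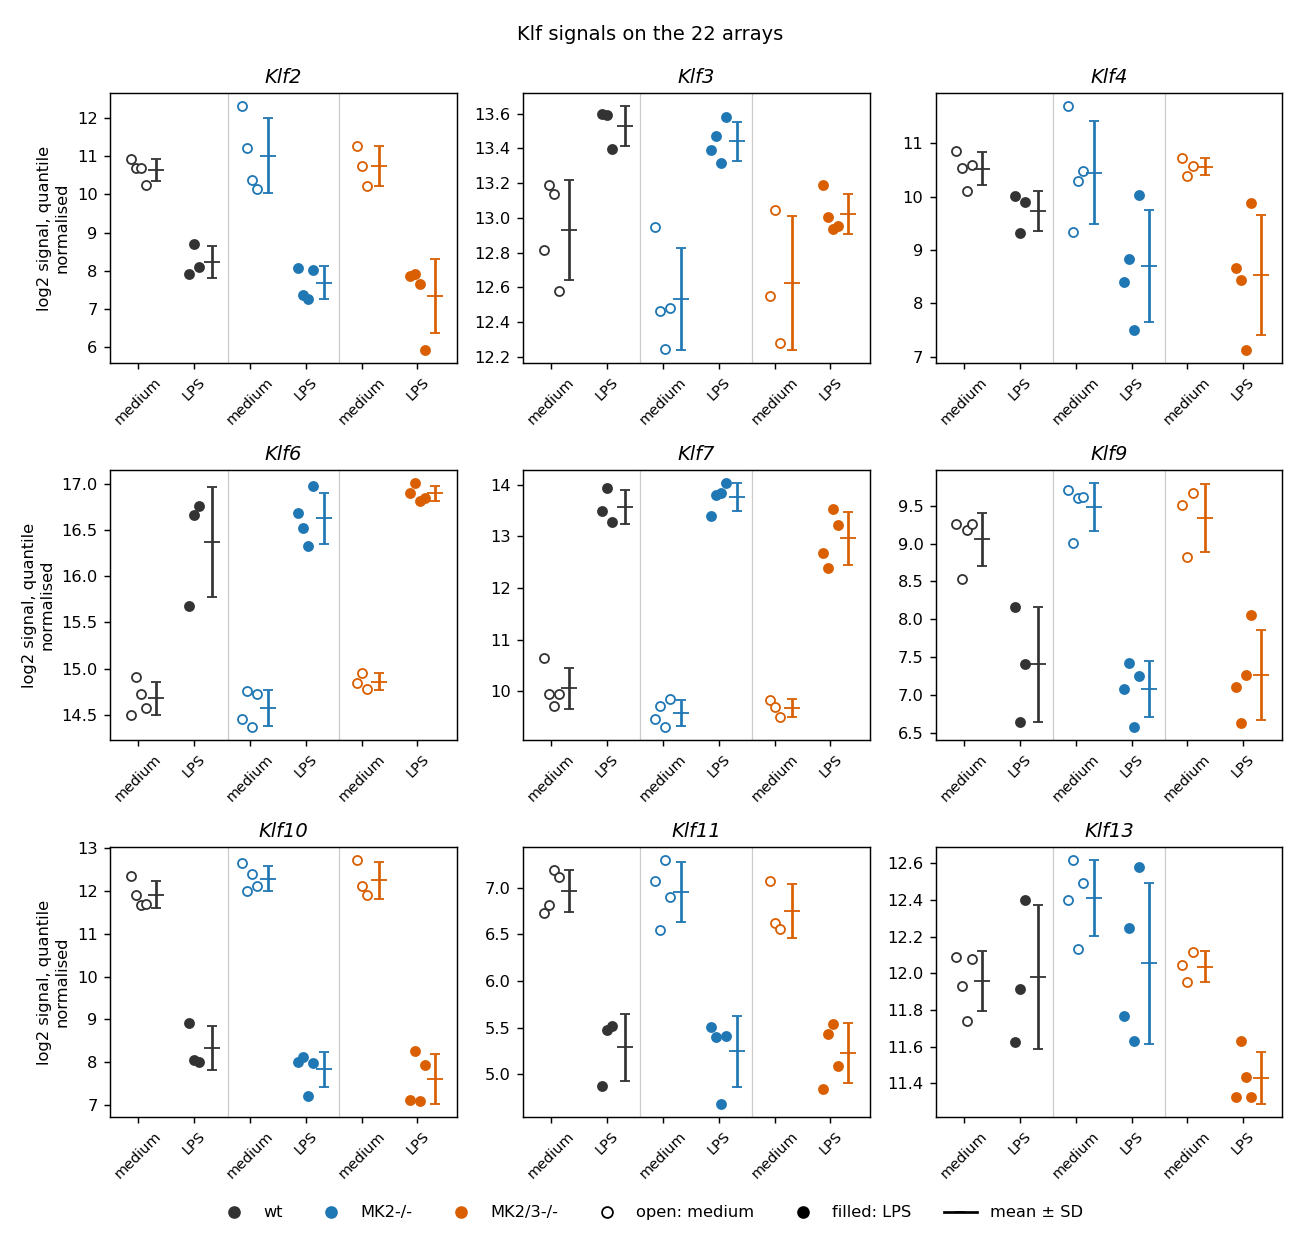
Log2 signal after quantile normalisation of the 9 Klf genes (one panel each, vertical axes differ) on all 22 arrays, by genotype (colour) and treatment (open circles medium, filled circles LPS), with the mean ± SD beside each group. LPS arrays of Klf6 and Klf7 lie above every medium array, those of Klf2, Klf9, Klf10 and Klf11 lie below every medium array, and Klf3, Klf4 and Klf13 overlap between some of the groups.

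Among the activating members, Klf7 showed the largest rise. Klf7 is expressed in many tissues and is known for roles in neurons and fat cells. In wt medium its log2 signals were 10.63, 9.94, 9.71 and 9.96, and in wt LPS 13.49, 13.93 and 13.28. MK2-/- arrays gave 9.46, 9.72, 9.30 and 9.84 in medium and 13.39, 13.80, 13.83 and 14.04 with LPS. MK2/3-/- arrays gave 9.82, 9.70 and 9.49 in medium and 12.68, 12.39, 13.53 and 13.23 with LPS. Every LPS array thus lay above every medium array, by more than the whole spread within groups, and 3 of the 4 MK2/3-/- LPS arrays lay below every LPS array of the other genotypes. The LPS difference was 3.51 ± 0.27 (SE) on the log2 scale in wt (11.4-fold, adjusted p = 7.76e-09), 4.18 ± 0.25 in MK2-/- (18.2-fold, adjusted p = 1.49e-10) and 3.28 ± 0.27 in MK2/3-/- (9.75-fold, adjusted p = 8.74e-09). By size of the rise Klf7 ranked 338 in wt, 297 in MK2-/- and 480 in MK2/3-/- among all genes tested.

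Klf6, an activator induced early in many stress responses, rose less in fold terms. Its wt medium signals were 14.50, 14.91, 14.72 and 14.58, and wt LPS arrays gave 15.68, 16.66 and 16.76, with replicate 1 well below the other two. In MK2-/- BMDM it measured 14.46, 14.76, 14.36 and 14.72 in medium and 16.69, 16.52, 16.32 and 16.97 with LPS. In MK2/3-/- BMDM it measured 14.85, 14.95 and 14.78 in medium and 16.90, 17.01, 16.82 and 16.85 with LPS, the tightest LPS group of the 3. No LPS array overlapped a medium array in any genotype. The difference was 1.69 ± 0.22 (SE) in wt (3.23-fold, adjusted p = 5.07e-06), 2.05 ± 0.20 in MK2-/- (4.14-fold, adjusted p = 9.32e-08) and 2.04 ± 0.22 in MK2/3-/- (4.10-fold, adjusted p = 2.88e-07).

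Klf2, which keeps T cells and endothelium quiescent and restrains inflammatory genes in myeloid cells, fell. In wt medium it measured 10.93, 10.69, 10.68 and 10.24, and with LPS 7.91, 8.70 and 8.10. MK2-/- arrays gave 12.32, 11.21, 10.37 and 10.15 in medium, the widest medium group, and 8.08, 7.37, 7.27 and 8.03 with LPS. MK2/3-/- arrays gave 11.27, 10.74 and 10.21 in medium and 7.87, 7.93, 7.66 and 5.92 with LPS. All LPS arrays were below all medium arrays, and replicate 4 of MK2/3-/- LPS was lowest of the 22. The log2 difference was -2.40 ± 0.49 (SE) in wt (5.27-fold, adjusted p = 0.000612), -3.32 ± 0.45 in MK2-/- (10.0-fold, adjusted p = 5.64e-06) and -3.39 ± 0.49 in MK2/3-/- (10.5-fold, adjusted p = 1.09e-05).

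Klf4, a factor of monocyte differentiation that is also used in reprogramming to pluripotency, had the widest LPS groups of the members described here in both knockouts. Its wt signals were 10.86, 10.53, 10.11 and 10.59 in medium and 10.01, 9.31 and 9.89 with LPS. In MK2-/- BMDM they were 11.71, 9.35, 10.28 and 10.48 in medium and 8.41, 8.83, 7.51 and 10.03 with LPS. In MK2/3-/- BMDM they were 10.72, 10.39 and 10.58 in medium and 8.67, 8.45, 7.12 and 9.87 with LPS. The wt LPS arrays lay just under the wt medium arrays, whereas the LPS arrays of both knockouts spread further apart, and in MK2-/- the treatment groups overlapped. The difference in wt was -0.78 ± 0.58 (SE) (95% interval -2.01 to 0.44), which did not pass the test (adjusted p = 0.308), although a fit on the wt arrays alone gave an adjusted p of 0.0406. Klf4 fell 3.39-fold in MK2-/- (log2 -1.76 ± 0.54, adjusted p = 0.0119) and 4.10-fold in MK2/3-/- (log2 -2.04 ± 0.58, adjusted p = 0.00708). The MK2-/- call was lost without replicate 1 of the medium arrays (-1.34, adjusted p = 0.0560), without replicate 3 of the LPS arrays (-1.36, adjusted p = 0.0517) and without both arrays of low Y-linked signal (-1.42, adjusted p = 0.0690). By the methods' t-test adjusted by Benjamini-Hochberg neither knockout call held (adjusted p of 0.102 and 0.0684).

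Klf3, the member that represses through CtBP, rose modestly. In wt it measured 12.81, 13.19, 13.14 and 12.58 in medium and 13.60, 13.59 and 13.40 with LPS. MK2-/- arrays gave 12.95, 12.46, 12.25 and 12.48 in medium and 13.39, 13.47, 13.32 and 13.58 with LPS. MK2/3-/- arrays gave 12.55, 13.04 and 12.28 in medium and 13.19, 13.01, 12.94 and 12.95 with LPS. In wt and MK2-/- the treatment groups were separate, and in MK2/3-/- replicate 2 of medium lay within the range of the LPS arrays. The difference was 0.60 ± 0.20 (SE) in wt (adjusted p = 0.0206), 0.91 ± 0.18 (adjusted p = 0.000429) in MK2-/- and 0.40 ± 0.20 (adjusted p = 0.110) in MK2/3-/-, the last not past the threshold. The wt call was lost without wt medium replicate 4, the array with raised Il6 (0.48, adjusted p = 0.0701), without wt LPS replicate 1 (adjusted p = 0.0573) and without wt LPS replicate 2 (adjusted p = 0.0679), and in the methods' t-test adjusted by Benjamini-Hochberg (adjusted p = 0.0511). With each array set to its 75th percentile, which also raised the median of all genes by 0.27 to 0.34, the differences in wt and MK2/3-/- were 1.16 and 0.85, the latter then called (adjusted p = 0.00144).

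Of the Sin3-binding members Klf10, a gene of the early response to transforming growth factor beta, fell most. Wt arrays gave 12.35, 11.91, 11.66 and 11.70 in medium and 8.92, 8.06 and 8.01 with LPS. MK2-/- arrays gave 12.65, 11.99, 12.40 and 12.11 in medium and 8.02, 8.12, 7.22 and 7.97 with LPS. MK2/3-/- arrays gave 12.73, 12.12 and 11.90 in medium and 7.13, 8.26, 7.09 and 7.93 with LPS. The lowest medium array, at 11.66, stood far above the highest LPS array, at 8.92. Klf10 fell 11.9-fold in wt (log2 -3.58 ± 0.32 (SE), adjusted p = 5.93e-08), 21.9-fold in MK2-/- (log2 -4.46 ± 0.30, adjusted p = 6.17e-10) and 25.1-fold in MK2/3-/- (log2 -4.65 ± 0.32, adjusted p = 1.19e-09). It ranked 199, 169 and 190 among all genes by size of the fall, ahead of the other 8 members in each genotype.

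Klf11, the close relative of Klf10, also fell. In wt it measured 6.73, 6.82, 7.19 and 7.12 in medium and 4.88, 5.48 and 5.52 with LPS. MK2-/- arrays ranged from 6.54 to 7.30 in medium and 4.68 to 5.51 with LPS, and MK2/3-/- arrays from 6.55 to 7.08 and 4.84 to 5.54. LPS and medium arrays did not overlap in any genotype. The log2 difference was -1.67 ± 0.25 (SE) in wt (adjusted p = 2.3e-05), -1.71 ± 0.23 (adjusted p = 4.75e-06) in MK2-/- and -1.52 ± 0.25 (adjusted p = 4.35e-05) in MK2/3-/-. This was a dim probe, and normexp background correction with an offset of 50 gave smaller falls of -0.84, -0.89 and -0.80, all still called.

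Klf9 is induced by glucocorticoids and follows the circadian clock in many tissues. Its wt signals were 9.25, 8.54, 9.18 and 9.25 in medium and 8.16, 6.64 and 7.41 with LPS. MK2-/- arrays ranged from 9.00 to 9.70 in medium and 6.57 to 7.42 with LPS, and MK2/3-/- arrays from 8.82 to 9.67 and 6.63 to 8.06. All LPS arrays were below all medium arrays, and replicate 2 was the lowest medium array in each genotype. The log2 difference for Klf9 was -1.65 ± 0.36 (SE) in wt (adjusted p = 0.000984), -2.40 ± 0.33 (adjusted p = 5.93e-06) in MK2-/- and -2.07 ± 0.36 (adjusted p = 7.58e-05) in MK2/3-/-.

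Klf13, known in T lymphocytes for activating the chemokine gene Ccl5, had the smallest LPS difference in wt and MK2-/-. Wt arrays gave 12.09, 11.93, 11.74 and 12.08 in medium and 11.63, 11.91 and 12.40 with LPS. MK2-/- arrays gave 12.40, 12.62, 12.13 and 12.49 in medium and 11.76, 12.24, 11.63 and 12.58 with LPS. MK2/3-/- arrays gave 12.04, 11.95 and 12.12 in medium and 11.33, 11.63, 11.44 and 11.33 with LPS. The wt LPS arrays spread to both sides of the wt medium arrays, and only in MK2/3-/- did the treatment groups separate. The log2 difference was 0.02 ± 0.22 (SE) in wt (95% interval -0.44 to 0.48, adjusted p = 0.953) and -0.36 ± 0.20 in MK2-/- (95% interval -0.78 to 0.07, adjusted p = 0.167), neither past the threshold. In MK2/3-/- it fell 1.52-fold (log2 -0.61 ± 0.22, adjusted p = 0.0271), a call lost with 75th percentile scaling (-0.46, adjusted p = 0.115). It was also lost in 4 of the 22 fits that each left out 1 array, namely without MK2/3-/- medium replicate 1 (adjusted p = 0.0625) or 3 (0.0823) and without MK2/3-/- LPS replicate 1 (0.0571) or 4 (0.0549).

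**Figure D2:**
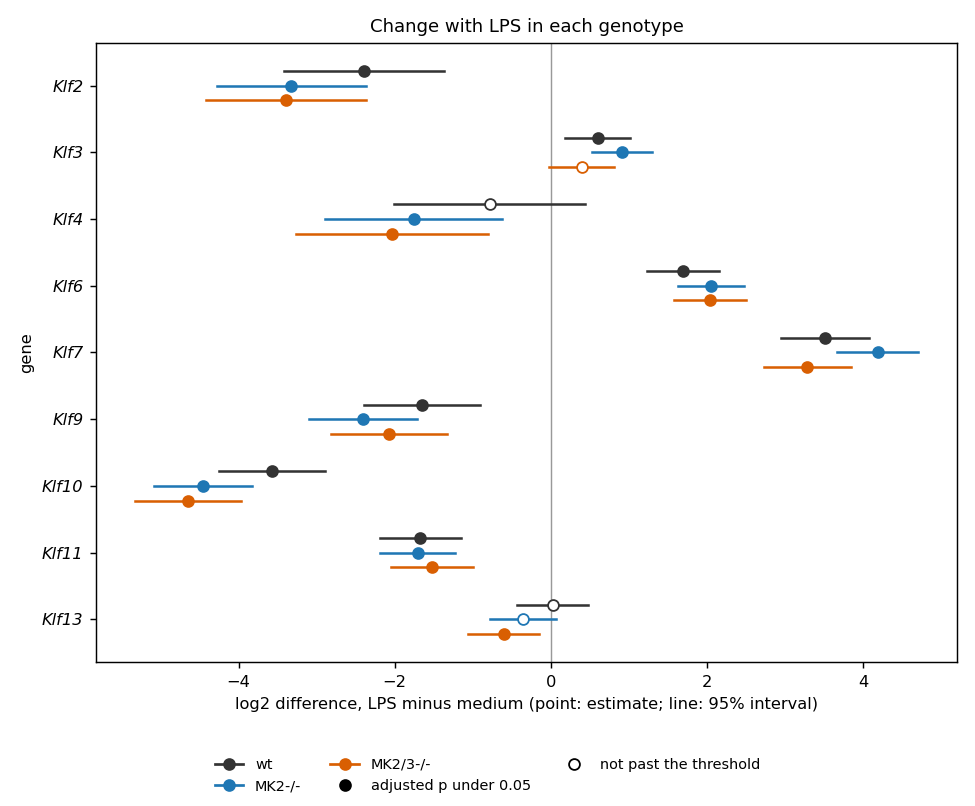
Log2 difference between LPS and medium (horizontal axis) for each Klf gene (rows) in wt, MK2-/- and MK2/3-/- BMDM (colours), as the limma estimate with its 95% interval; filled points passed an adjusted p of 0.05. Klf10 and Klf2 lie farthest to the left and Klf7 farthest to the right in all 3 genotypes, and the open points are Klf4 and Klf13 in wt, Klf13 in MK2-/- and Klf3 in MK2/3-/-.

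**Figure D3:**
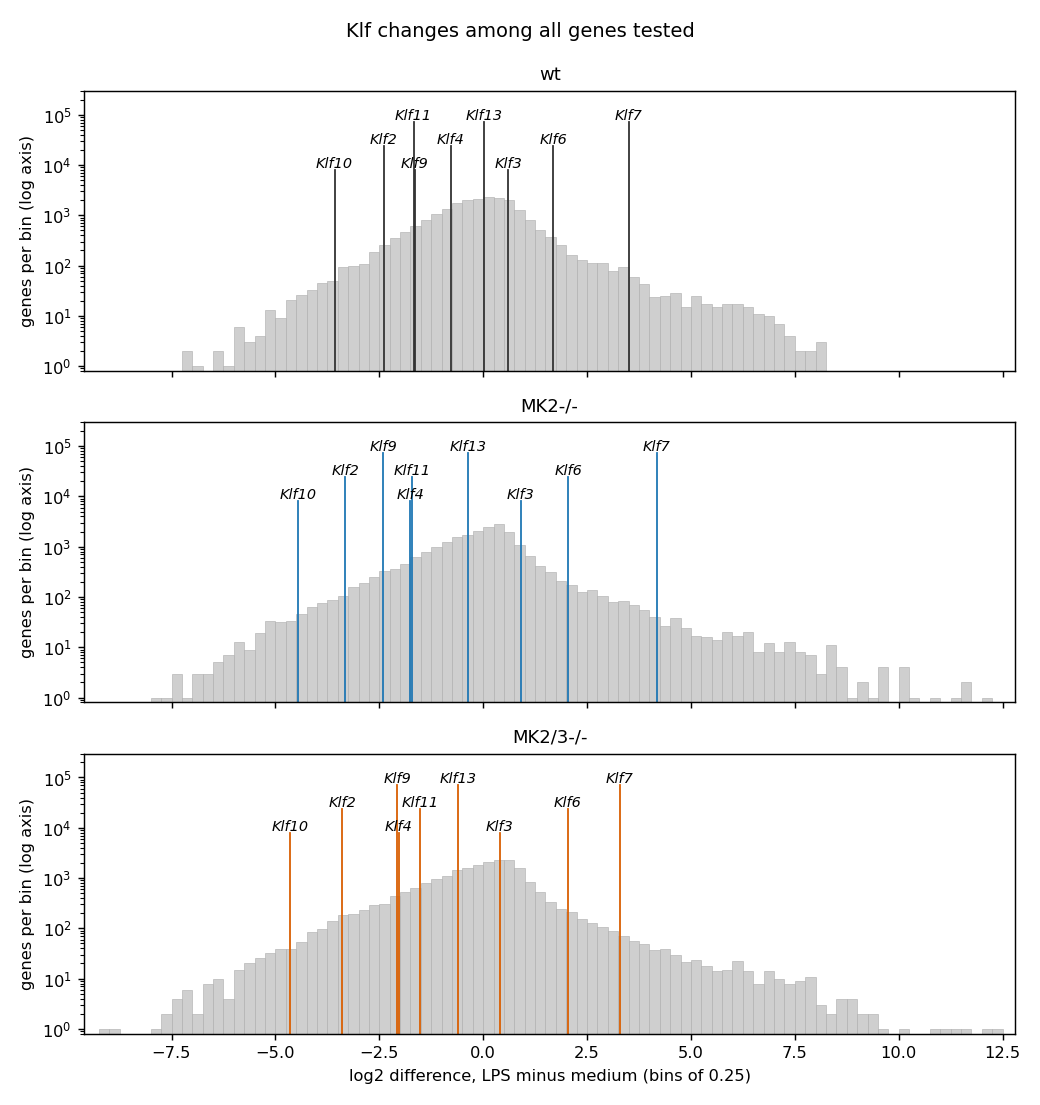
Number of genes per bin of 0.25 log2 LPS difference (grey bars, log axis) over the 22346 genes tested in each genotype, with the 9 Klf genes as labelled lines. Klf7 lies in the upper tail and Klf10 in the lower tail in each panel, and Klf13 lies near 0 in wt (0.02) but at -0.61 in MK2/3-/-.

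The next question was whether the level of a member under LPS depended on MK2 or on MK2 and MK3. Klf7 and Klf13 were called lower in MK2/3-/- than in MK2-/- BMDM under LPS, 2 of 9 members, beside 13.6% of all genes called in either direction. Each of these calls was lost in several other settings and in several fits without 1 array. No member passed the test when either knockout was compared with wt. Between MK2-/- and wt under LPS, 0 of 9 members were called by limma, with 11.6% of all genes, and 0 had an unadjusted p below 0.05, as 29.5% of all genes did. The median difference of the members was -0.09, and the widest 95% interval, that of Klf4, ran from -2.27 to 0.18. None of the 9 had groups without overlap, as 27.8% of all genes did. Between MK2/3-/- and wt under LPS, 0 of 9 were called by limma, with 23.7% of all genes, while 5 had an unadjusted p below 0.05, as did 36.7% of all genes. Those 5 were Klf3 (-0.51 ± 0.20, adjusted p = 0.0712), Klf6 (0.53 ± 0.22, adjusted p = 0.0887), Klf7 (-0.61 ± 0.27, adjusted p = 0.106), Klf10 (-0.73 ± 0.32, adjusted p = 0.109) and Klf13 (-0.55 ± 0.22, adjusted p = 0.0735). For Klf3 all 4 MK2/3-/- LPS arrays lay below all 3 wt LPS arrays, and for Klf6 all 4 lay above, so 2 of 9 members did not overlap, with 28.3% of all genes. The methods' t-test, unadjusted, found 0 members in MK2-/- against wt and 2 in MK2/3-/- against wt. With Benjamini-Hochberg adjustment it found 0 in both, and no share of all genes is given here for these counts. With 75th percentile scaling Klf11 turned from -0.04 to 0.62 against wt in MK2-/- and from -0.06 to 0.76 in MK2/3-/-, both then called.

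Between MK2/3-/- and MK2-/- under LPS, 2 of 9 members were called, with 13.6% of all genes. Klf7 was 1.75-fold lower in MK2/3-/- (log2 -0.81 ± 0.25 (SE), adjusted p = 0.0373), and Klf13 was 1.54-fold lower (log2 -0.62 ± 0.20, adjusted p = 0.0463). For both genes the arrays of the groups overlapped. Leaving out arrays singly removed the Klf7 call in 5 of 22 fits, those without MK2-/- LPS replicate 2, 3 or 4 or MK2/3-/- LPS replicate 1 or 2, at adjusted p of 0.0667 to 0.107, and without both arrays of low Y-linked signal (-0.78, adjusted p = 0.0726). Both calls were also lost in a fit of the compared groups alone (adjusted p of 0.147 for Klf7 and 0.182 for Klf13), with array weights (0.0742 and 0.0929) and in the methods' t-test adjusted by Benjamini-Hochberg (0.209 and 0.215), and that of Klf7 with 75th percentile scaling (0.0549). The Klf13 call was lost in 15 of 22, among them those without MK2-/- LPS replicate 2 or 4 or MK2/3-/- LPS replicate 1, 3 or 4, at adjusted p up to 0.146. The other 10 left out an array outside this comparison and kept the value of -0.62. Klf3 was -0.42 ± 0.18 with no overlap between the groups, the only such member, beside 14.3% of all genes, and its adjusted p was 0.141.

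In medium no member was called between genotypes by limma. The counts were 0 of 9 for MK2-/- against wt (8.88% of all genes called), 0 for MK2/3-/- against wt (2.02%) and 0 for MK2/3-/- against MK2-/- (2.83%), with 2, 0 and 0 members at an unadjusted p below 0.05, beside 25.9%, 16.9% and 15% of all genes. The 2 were Klf3 (-0.40 ± 0.18, adjusted p = 0.182) and Klf13 (0.45 ± 0.20, adjusted p = 0.165) in MK2-/- against wt. All 4 MK2-/- medium arrays carried more Klf13 than any wt or MK2/3-/- medium array. Members without overlap numbered 1 for MK2-/- against wt, with 20.7% of all genes, 0 for MK2/3-/- against wt, with 24%, and 2 (Klf6 and Klf13) for MK2/3-/- against MK2-/-, with 17.9%. By the methods' t-test, unadjusted, the counts were 1, 0 and 1, the 1 being Klf13 in both cases, with no share of all genes given here.

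**Figure D4:**
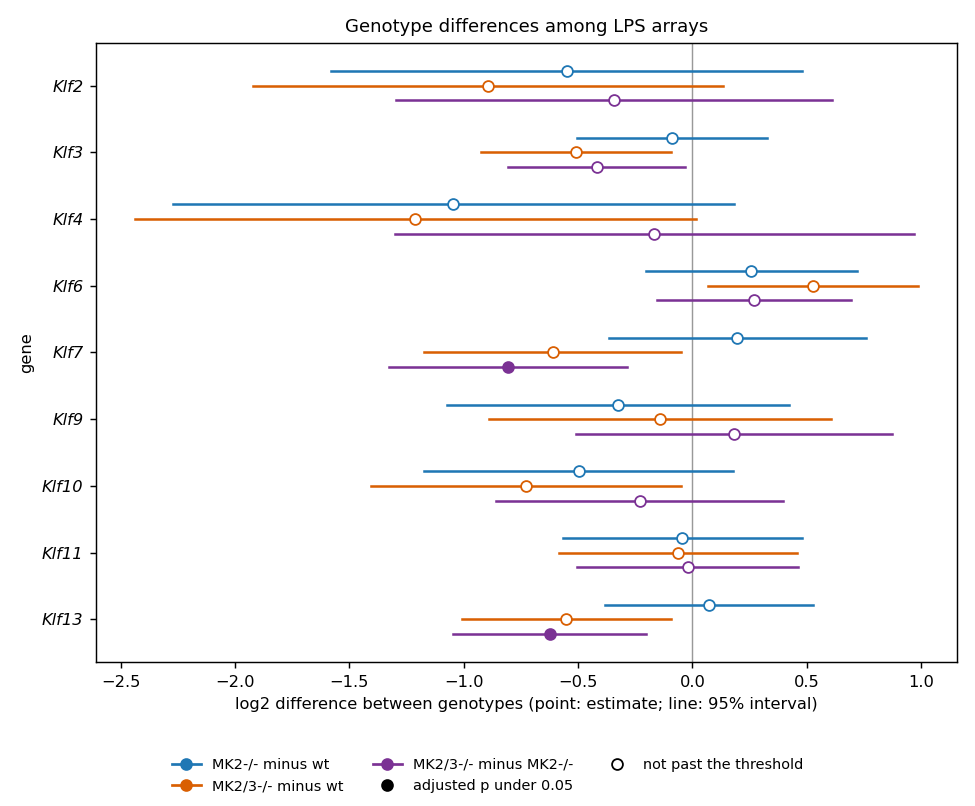
Log2 differences between genotypes among LPS arrays (horizontal axis) for each Klf gene (rows), with 95% intervals from limma; filled points passed an adjusted p of 0.05. Only the MK2/3-/- minus MK2-/- differences of Klf7 (-0.81) and Klf13 (-0.62) are filled, and both calls were lost in several other settings.

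The LPS difference itself was compared between genotypes, a measure in which an additive effect of the slide cancels. No member was called by limma: 0 of 9 for MK2-/- against wt, where 0% of all genes were, 0 for MK2/3-/- against wt (0.689%) and 0 for MK2/3-/- against MK2-/- (0.0671%), with 0, 1 and 1 members at an unadjusted p below 0.05, beside 7.54%, 11.4% and 8.61% of all genes. The one in MK2/3-/- against wt was Klf10, whose LPS difference in the knockout minus that in wt was -1.07 ± 0.46 (95% interval -2.03 to -0.11, adjusted p = 0.351). For Klf7 the LPS difference in MK2/3-/- minus that in MK2-/- was -0.90 ± 0.37 (95% interval -1.67 to -0.13, adjusted p = 0.495). Klf2 had differences of -0.93 ± 0.67 and -1.0 ± 0.69 in the knockouts against wt, with intervals of -2.33 to 0.47 and -2.45 to 0.46. For Klf4 they were -0.98 ± 0.80 and -1.25 ± 0.83, with intervals of -2.65 to 0.69 and -2.99 to 0.48. Klf11 had the narrowest range of LPS differences over the genotypes, at -1.67, -1.71 and -1.52. The comparisons with wt share the wt arrays.

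Ordered by mean log2 signal, the 3 LPS groups stood together above or below the 3 medium groups for every member but Klf13. For Klf2, Klf6, Klf7, Klf9, Klf10 and Klf11 the blocks of 3 did not overlap each other, while neighbouring groups within a block did. For Klf4 every group overlapped its neighbour, from MK2/3-/- medium at 10.56 ± 0.16 (SD, n = 3) down to MK2/3-/- LPS at 8.53 ± 1.13 (SD, n = 4). For Klf3 the order ran from wt LPS at 13.53 ± 0.12 (SD, n = 3) and MK2-/- LPS at 13.44 ± 0.11 (SD, n = 4), which overlapped, to MK2/3-/- LPS at 13.02 ± 0.12 (SD, n = 4), separate from MK2-/- LPS but overlapping wt medium at 12.93 ± 0.29 (SD, n = 4). For Klf13 the highest group was MK2-/- medium at 12.41 ± 0.21 (SD, n = 4) and the lowest MK2/3-/- LPS at 11.43 ± 0.14 (SD, n = 4), which did not overlap the next group, wt medium at 11.96 ± 0.16 (SD, n = 4).

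The genes whose signal followed each member most closely over the 22 arrays were ranked by Pearson's r, as a description in which the LPS and medium arrays form separate clusters that all such genes share. Nearest to Klf7 were Jdp2 (r = 0.983), which encodes a repressor of AP-1, Magohb (0.982), of the exon junction complex, and Ext1 (0.982), which polymerises heparan sulfate. Close to Klf6 were Vcpip1 (0.985) and Slfn5 (0.985). Near Klf10 were Tnfrsf21 (0.992), a death receptor, Cmas (0.992), which activates sialic acid, and Abhd15 (0.990). Klf2 was nearest to Calhm2 (0.954), Unc119 (0.954) and Rasgef1a (0.949), and Klf9 to Setd7 (0.976), a lysine methyltransferase, Sbsn (0.970) and Golm1 (0.966). For Klf11 they were Foxred2 (0.968), Neil2 (0.968), a DNA glycosylase, and Il16 (0.965). Correlations were lower for Klf3, with Clec4a1 (0.902), Susd6 (0.894) and 8030462N17Rik (0.871), for Klf4, with L3mbtl3 (0.911), Zrsr1 (0.910) and Atl2 (0.904), and for Klf13, with Cabin1 (0.842), Pabpn1 (0.823) and Srpk1 (0.817).

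Of 8 other Klf genes 7 were tested, and with LPS 2, 2 and 2 rose and 0, 0 and 1 fell in wt, MK2-/- and MK2/3-/-. Over all genes 18.6%, 17.6% and 20.3% rose and 23.5%, 27.2% and 28% fell. These shares also stand beside the counts of the lists that follow. Klf8, a CtBP-binding relative of Klf3, rose in each (log2 2.48, 2.22 and 1.65), as did Klf17 (0.62, 0.63 and 1.00). The gene that fell was Klf16, a Sin3-binding member named after its values were seen (-1.48 ± 0.46 in MK2/3-/-, adjusted p = 0.0128). Among Sp factors, the relatives that bind GC boxes with similar zinc fingers, 8 of 9 were tested, with 2, 3 and 2 higher and 1, 1 and 3 lower. Sp1, the ubiquitous factor, fell (-1.04, -0.84 and -1.21), and Sp4 (1.64, 1.82 and 2.09) and Sp6 (1.56, 2.09 and 2.12) rose. The medians of both lists, 0.28 and 0.33 in wt, lay above the median of all genes of -0.04.

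Partners of the Klf proteins moved in both directions. Of 9 corepressor and coactivator genes 2, 2 and 2 rose and 3, 2 and 4 fell, with a median of -0.22 in wt. Both CtBP genes fell in each genotype, Ctbp1 (log2 -1.22, -0.89 and -1.17) and Ctbp2 (-1.23, -0.70 and -1.17), while Klf3 and Klf8, whose proteins bind CtBP, were not called lower in any. The deacetylase gene Hdac1 (1.16, 1.01 and 1.31) and the acetyltransferase gene Kat2b (1.75, 1.51 and 1.82) rose.

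Of 8 kinases and factors placed upstream of Klf2 and Klf4, 1, 1 and 1 rose and 6, 4 and 6 fell, with a median of -1.04 in wt. Map2k5, which activates Erk5, fell (log2 -1.43, -2.07 and -2.07), as did Mef2c (-1.55, -2.09 and -1.78) and Foxo1 (-1.58, -1.72 and -1.68). The exception was Mef2a, which rose (2.59, 3.05 and 2.46). Of 5 genes known as Klf2 targets in other cells 2, 1 and 1 rose and 1, 2 and 2 fell, with a median of -1.11 in wt. The lipid receptor gene S1pr1 fell (-2.93, -3.59 and -5.62) like Klf2, whereas Nos3, which encodes endothelial nitric oxide synthase, rose in wt (1.34 ± 0.36, adjusted p = 0.00568).

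In the list of transforming growth factor beta signalling, 0, 1 and 0 of 9 genes rose and 5, 5 and 4 fell, with a median of -1.11 in wt. The receptor gene Tgfbr1 fell (log2 -4.31, -2.99 and -3.44), and so did the transducer Smad3 (-2.15, -3.14 and -3.67), beside Klf10 and Klf11. Tgfb3, a ligand, fell too (-1.74, -1.97 and -2.09), and the inhibitor Smad7 was -1.19 ± 0.47 in wt (adjusted p = 0.050, just under the threshold). Of 9 clock and glucocorticoid genes 0, 1 and 0 rose and 6, 7 and 6 fell, with a median of -1.97 in wt. Beside Klf9, the clock output genes Tef (-4.54, -4.67 and -5.26) and Dbp (-3.39, -4.12 and -3.89), the clock gene Per2 (-2.63, -1.85 and -3.15) and Tsc22d3, which encodes the glucocorticoid-induced GILZ (-4.12, -4.98 and -4.50), fell in each genotype. These lists were chosen with earlier results of these data known, and whether any gene in them acts on a Klf gene was not tested.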

How the data were processed

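Cy3-labelled RNA of each sample was hybridised by the authors to its own Agilent 1-colour array. The deposited scanner intensity had been corrected for background by Feature Extraction 11.0.1.1 and was not normalised between arrays, and the authors' table of log2 values is, by their methods, quantile normalised and centred on the median. Here, control spots were dropped, spots marked as outliers were set to missing, and log2 processed signals were quantile normalised over the 22 arrays. Of probes with a RefSeq or GenBank accession, the 28054 detected well above background on 3 arrays or more were used, the brightest standing for its gene (22346 genes, 18359 with a symbol). Names came from RefSeq genes of GRCm38.p6, whereas the array design is annotated on mm9.

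limma 3.58.1 in R 4.3.3 fitted 6 group means to all 22 arrays with eBayes, and Benjamini-Hochberg adjusted two-sided p-values were taken over all genes. The code was tested on simulated data. Between 61.1% and 78.0% of probes per array were well above background, and the number of arrays limits the precision. No replicates were duplicates (smallest median absolute log2 difference 0.25). Alternatives were other scaling, background correction, filters, weights, blocks, the methods' t-test, the authors' table and leaving out each array. Named were the 9 members, Mapkapk2 and Mapkapk3, the 3 closest genes by correlation and up to 4 genes per list with the largest change called in wt. Some genes that this rule names are not reported here. Members and lists were chosen with earlier results of these data known. Samples were grouped by their GEO labels.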

Additional observations from a re-analysis of the deposited data

Results flagged for a closer look

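A sample lay far from the 3 others of its group for 5 of the 36 combinations of a Klf gene with a group of 4 arrays (Dixon's test at 95%, by which chance alone gives about 1 in 20). Klf2 was 5.92 on replicate 4 of MK2/3-/- LPS, where the others lay between 7.66 and 7.93. Klf9 was 8.54 on replicate 2 of wt medium, with the others between 9.18 and 9.25, and 9.00 on replicate 2 of MK2-/- medium, with the others between 9.61 and 9.70. Replicate 3 of MK2-/- LPS was low for Klf10, at 7.22 with the others between 7.97 and 8.12, and for Klf11, at 4.68 with the others between 5.40 and 5.51. That array is one of the pair with low Y-linked signal and had 2927 marked spots, compared with 115 to 261 on the other arrays. The part of either in these values was not tested. All values are log2 signals, and no LPS call of these 4 genes in any genotype was lost when any 1 array was left out.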

How the results depend on the processing

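Over the 9 members and 12 comparisons, 1320 of 1350 values under other settings and 2339 of 2376 without 1 array kept their side of the threshold. Called values among these also kept their direction. Values called in neither fit were counted as kept whatever their direction, and some of them changed sign. Klf2, Klf6, Klf7, Klf9, Klf10 and Klf11 kept every LPS call. When 1 array was left out, members called with LPS numbered 6 to 7 in wt (6 without wt medium replicate 4 or wt LPS replicate 1 or 2), 7 to 9 in MK2-/- (9 without LPS replicate 4, where Klf13 was -0.53) and 7 to 9 in MK2/3-/- (9 without medium replicate 2, where Klf3 was 0.61). Genotype comparisons moved more. The counts of members in this section are given without the share of all genes called in the same setting, so they cannot show a change particular to the members. Scaling to the 75th percentile gave 1 member for MK2-/- against wt under LPS, 4 (Klf3, Klf7, Klf11 and Klf13) for MK2/3-/- against wt under LPS, 1 for MK2/3-/- against MK2-/- under LPS and 1 (Klf3) for MK2-/- against wt in medium, and reversed Klf11 to 0.62 and 0.76 against wt under LPS in MK2-/- and MK2/3-/-. For MK2/3-/- against wt under LPS, normexp gave 2, array weights 1, the methods' unadjusted t-test 2, and fits without 1 array 0 to 1 (1 without wt LPS replicate 1 or 3, MK2-/- LPS replicate 4 or MK2/3-/- LPS replicate 2, 3 or 4). For MK2/3-/- against MK2-/- under LPS, a fit of the compared groups alone gave 0, array weights 0, the methods' t-test after adjustment 0, the fit without both arrays of low Y-linked signal, chosen after seeing the data, 1, and fits without 1 array 0 to 2. The methods' unadjusted t-test gave 1 for MK2-/- against wt in medium and 1 for MK2/3-/- against MK2-/- in medium. The cause was not tested. The t-test was not run for the difference of the LPS response. Normexp used the median spot signal, in place of the planned mean, and a comparison between probes of a gene was not run because each member had 1.

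Arrays of a genotype that share a letter had deviations correlating above 0.1 in 7 of 10 pairs, against 5 of 30 of unlike letter. Within each of the 10 pairs of shared letter, the LPS and the medium array also had the same age on their labels. The arrays of low Y-linked signal, replicate 3 of both MK2-/- groups, shared the letter c. The main fit did not take the arrays as paired. The labels do not say that a replicate number marks a shared animal or day, and the methods' t-test had no pairing. Whether the arrays of a pair came from the same animal was not tested. With a replicate block by letter or by label number, 7, 8 and 8 members were called with LPS in wt, MK2-/- and MK2/3-/-, 2 for MK2/3-/- against MK2-/- under LPS and 0 elsewhere, and the block changed no call of a member. These counts too lack the share of all genes called in the same fit.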
